A study of Rattus norvegicus with 4 samples.

Results

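The mammalian circadian clock was examined at the RNA level in glomeruli, the filtering units of the kidney, through 10 clock and clock output genes: Arntl (also called Bmal1), Clock, Npas2, Per1, Per2, Per3, Nr1d1, Nr1d2, Dbp and Tef. They were chosen by symbol from the deposited table, in which each was listed once, and make up 10 of the 13261 genes used. The samples came from 4 male Wistar rats, an outbred strain, that form 1 group. All had received an intravenous injection of Adriamycin (ADR, doxorubicin), an anthracycline that injures podocytes and produces nephrotic syndrome in rodents. Glomeruli were isolated by sieving, and polyadenylated RNA was sequenced. The labels name harvest on day 11 or 21 without saying which applied to these animals, and they give no time of day. Control animals, and the animals of the wider study that received puromycin aminonucleoside with or without a PPARγ agonist, were not analysed here, so what follows concerns levels under ADR and how far the 4 rats lay apart.

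The clock is a feedback loop of transcription. CLOCK, or its relative NPAS2, pairs with BMAL1 (the product of Arntl) and activates genes with an E-box in their promoters, among them the Per, Cry, Nr1d and Dbp genes. PER and CRY proteins then repress that activation. NR1D1 and NR1D2 (REV-ERB alpha and beta) repress Arntl and Npas2 through ROR elements, so that in rodent tissues Arntl and Npas2 transcripts peak when those of Nr1d1 and Dbp are low. DBP and TEF are PAR bZIP factors that carry the rhythm to output genes through D-boxes. Nearly all kidney cell types run this clock, and none of these genes marks a particular glomerular cell.

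Clock factors act through short promoter elements, so 1 promoter window is shown for each member in which letters of such an element were found. RefSeq promoter sequences (build GRCr8) were found for 10 of the 10 members, Arntl under the symbol Bmal1, and the 250 bases before each annotated start were searched on both strands. The search covered the E-box CACGTG, its variant CACGTT, the D-boxes TTATGTAA and TTACGTAA, and the ROR elements TAGGTCA and TAGGTTA. Matches, on either strand, are in capitals, and each sequence runs 5′ to 3′ on the strand of its gene.
Arntl (chr1:176766078-176766327, plus strand): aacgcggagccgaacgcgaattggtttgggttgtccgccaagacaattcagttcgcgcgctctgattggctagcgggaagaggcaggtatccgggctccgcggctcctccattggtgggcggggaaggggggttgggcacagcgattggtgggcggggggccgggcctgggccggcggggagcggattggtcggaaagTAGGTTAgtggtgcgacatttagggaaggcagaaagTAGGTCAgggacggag
Per2 (chr9:99496994-99497243, minus strand): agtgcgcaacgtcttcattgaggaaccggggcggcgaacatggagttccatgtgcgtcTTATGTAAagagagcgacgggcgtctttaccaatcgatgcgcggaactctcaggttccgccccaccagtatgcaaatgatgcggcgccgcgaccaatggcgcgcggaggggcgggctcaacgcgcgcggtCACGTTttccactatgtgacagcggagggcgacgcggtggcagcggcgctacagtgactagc
Nr1d1, upstream start (chr10:84231813-84232062, minus strand): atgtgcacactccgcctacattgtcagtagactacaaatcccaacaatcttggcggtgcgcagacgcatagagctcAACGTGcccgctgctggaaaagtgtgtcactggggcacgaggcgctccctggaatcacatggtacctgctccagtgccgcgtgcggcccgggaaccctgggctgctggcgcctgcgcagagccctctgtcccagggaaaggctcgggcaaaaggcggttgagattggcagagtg
Tef (chr7:115206577-115206826, plus strand): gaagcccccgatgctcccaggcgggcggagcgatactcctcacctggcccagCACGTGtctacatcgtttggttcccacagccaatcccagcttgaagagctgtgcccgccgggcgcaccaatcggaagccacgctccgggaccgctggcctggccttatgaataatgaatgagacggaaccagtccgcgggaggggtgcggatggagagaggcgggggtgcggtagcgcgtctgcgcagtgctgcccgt

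The Arntl window held both ROR elements, which began 52 and 16 bases before the start. The Per2 window held a D-box at 192 bases and an E-box variant at 62 bases. An E-box lay 198 bases before the Tef start and an E-box variant, read on the opposite strand, 174 bases before the upstream Nr1d1 start. The window of a second, downstream Nr1d1 start, of which only the part around the match is printed, had the E-box gtcagctcccaCACGTGtctggggatcc 191 bases before it. The other 6 members, Clock, Npas2, Per1, Per3, Nr1d2 and Dbp, had no match in these windows. Sequence beyond the 250 bases was not searched, so an element there would be missed. Among 33469 promoter windows of the same length, 5.59% held CACGTG, 4.07% CACGTT, 0.828% TTATGTAA, 0.108% TTACGTAA, 2.26% TAGGTCA and 1.42% TAGGTTA. The share with any of these elements was not computed. A match is a string of letters and does not show that a factor binds there. Binding was not measured.

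The libraries held 13566962, 16207027, 15348629 and 15244063 reads over the genes used in replicates 1 to 4. Values are CPM, in which each library's reads are brought to an equal total, or log2 CPM, and differences between animals are on the log2 scale. Where reads of a gene are given, they are not scaled to library size, and any order of the animals follows CPM. Transcript length was not used, so levels are compared between animals and not between genes. The measured podocyte (12 of 12 listed), endothelial (9 of 10), mesangial (8 of 8) and proximal tubule (12 of 12) markers had reads in every animal. Of the podocyte genes, 12 of 12 were highest in replicate 1 and lowest in replicate 2, where the shares over all genes were 27.7% and 31.5%. Of the 12 proximal tubule genes, 12 were lowest in replicate 3 and 8 highest in replicate 1, against 19.6% and 27.7% of all genes. In bulk glomeruli, fewer cells of a type and less RNA per cell cannot be told apart.

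The 10 members were present in every library and differed modestly between animals. The fewest reads were 60, for Npas2 in replicate 3, and the most were 2434, for Dbp in replicate 1. The highest animal exceeded the lowest by between 1.04-fold, for Nr1d2, and 1.82-fold, for Npas2. The SD of the log2 values over 4 animals had a median of 0.24 over the members, against 0.18 over all genes, and 7 of the 10 lay above that all-gene median. Without replicate 1 the members' median SD was 0.16. For 7 members leaving out 1 animal moved the SD by more than 1.5 times. The SD of Arntl fell from 0.36 to 0.09 and that of Clock from 0.17 to 0.11 without replicate 2. Without replicate 1, the SD of Dbp went from 0.21 to 0.10, that of Nr1d1 from 0.27 to 0.15 and that of Per1 from 0.21 to 0.11. The SD of Npas2 was 0.36 with all animals and 0.21 without replicate 3, and that of Tef 0.17 and 0.07 without replicate 4.

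**Figure D1:**
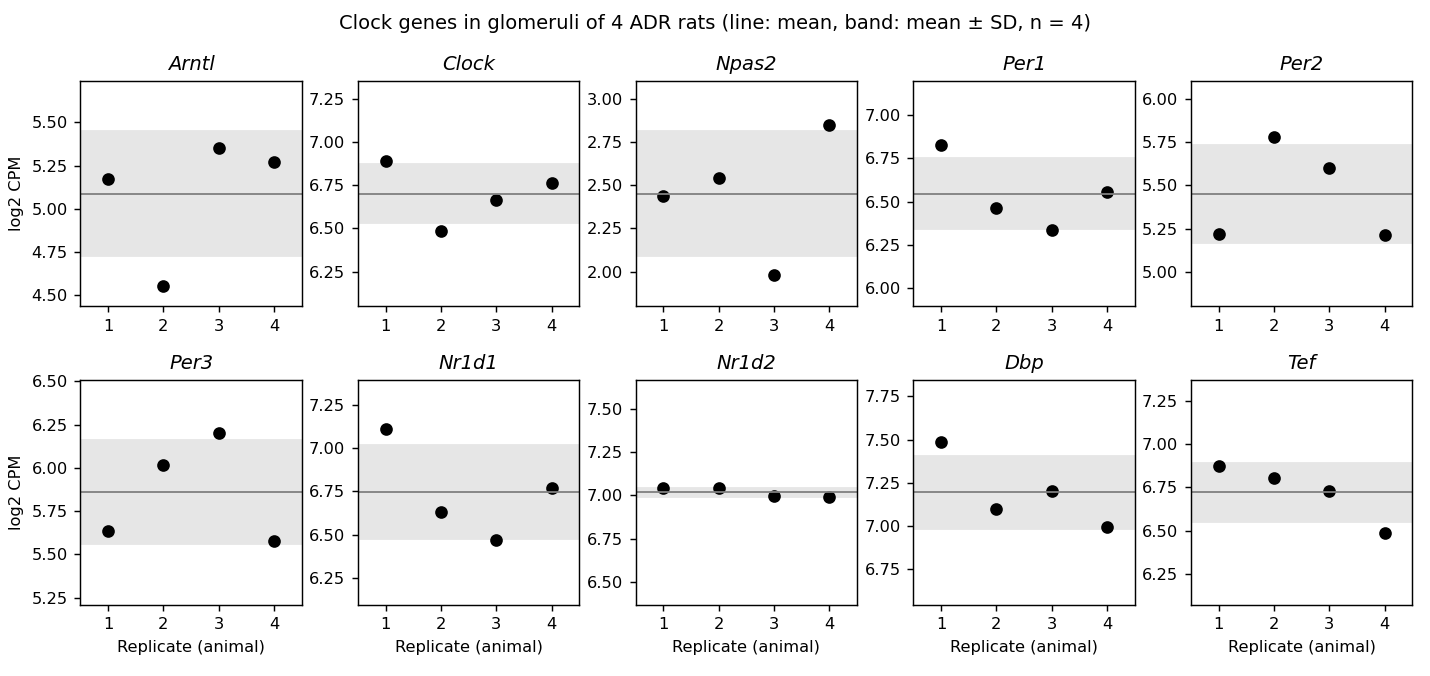
Level of each clock gene in glomeruli of the 4 ADR animals, in log2 CPM, on axes of equal height; the line is the mean and the band the mean ± SD (n = 4). Arntl sat lowest in replicate 2, Npas2 highest in replicate 4, and Nr1d2 differed by 0.05 over the 4 animals.

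Reads sampled from a library differ by chance, and 9 of the 10 members varied beyond such counting noise (chi-square test on reads, Benjamini-Hochberg adjusted over all genes). The share over all genes was 69.5%. The exception was Nr1d2 (adjusted p = 0.604). Limma's variance trend was used to ask whether a member varied more than genes at its level of expression. That test called 0 of the 10 members, and 0 of 13261 genes (0%), at an adjusted p under 0.05. Its smallest adjusted p over all genes was 0.912, so 0 members called does not show that the members were even. At an unadjusted p under 0.05 the limma test passed 0 members, where 5.47% of all genes passed. The smallest adjusted p among the members, that of Arntl, was 0.94 in limma. A more sensitive test on reads, called the fixed-trend test because it takes the dispersion trend as known, also called 0 members, against 7.59% of all genes. Unadjusted, 4 members passed it, namely Arntl, Per2, Per3 and Nr1d1, against 15.9% of all genes. Without replicate 1 this test called 1 of the 10 members, Arntl (adjusted p = 0.0204), and 662 of the 13261 genes, or 4.99%. The p-values measure the spread between these 4 samples, part of which may be technical.

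**Figure D2:**
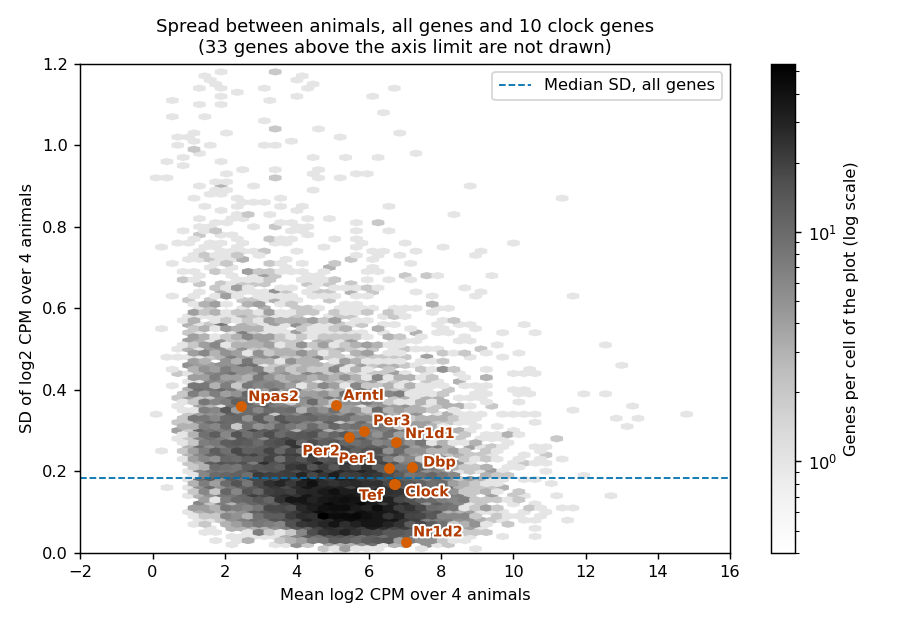
SD of log2 CPM over 4 animals against mean log2 CPM, for all genes (grey, darker where more genes fall) and the 10 members (orange). The members lie within the cloud of genes of like abundance, with Nr1d2 near its lower edge at an SD of 0.03.

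Among the activators, Arntl (ENSRNOG00000014448) encodes the partner without which the loop does not run. Its level was 36.0, 23.5, 40.9 and 38.6 CPM in replicates 1 to 4, a mean of 34.7 ± 7.74 (SD, n = 4). Replicate 2 was low, and the other 3 animals lay within a narrow band. The highest animal, replicate 3, had 1.74 times the level of replicate 2, a log2 range of 0.80 against a counting error of at most 0.07 for any of its values. Npas2 (ENSRNOG00000013408), which can take the place of Clock, had 73, 94, 60 and 109 reads, or 5.38, 5.80, 3.91 and 7.15 CPM. Here replicate 4 was high and replicate 3 low, the opposite of what Arntl showed in replicate 3. Only 2 of the 6 pairs of animals differed in Npas2 beyond the 95% binomial interval of their reads, since the gene had few reads. Clock (ENSRNOG00000002175), the other E-box activator, had 118, 89.7, 101 and 109 CPM. Its lowest animal was replicate 2, as for Arntl, but its range was smaller at 0.40.

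The within-animal difference of Npas2 and Arntl on the log2 scale was -2.74, -2.01, -3.37 and -2.43 in replicates 1 to 4. Its range of 1.36 exceeded that of either gene. Without replicate 3, where Npas2 had 60 reads, that range was 0.72, about the 0.71 of Arntl alone over the same animals. The counting error of a single difference was at most 0.19. Replicates 2 and 3 lay at opposite ends, and the difference between Clock and Arntl had a range of 0.62, again with replicates 2 and 3 at the ends.

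Nr1d1 (ENSRNOG00000009329), a repressor known to act through ROR elements, had 138, 99.1, 88.7 and 109 CPM, a mean of 109 ± 21.4 (SD, n = 4). Replicate 1 was high and replicate 3 low, by a factor of 1.56. All 6 pairs of animals differed in Nr1d1 beyond the counting interval. Its paralog Nr1d2 (ENSRNOG00000046912), which acts on the same elements, had 132, 132, 128 and 127 CPM. None of the 6 pairs differed beyond the counting interval, and the SD of 0.03 put Nr1d2 at percentile 0.566 of all genes. The difference between the paralogs, Nr1d1 minus Nr1d2, was 0.07, -0.41, -0.53 and -0.22 in replicates 1 to 4, so its range of 0.60 came almost wholly from Nr1d1. This evenness depended on the scaling. The SD of Nr1d2 became 0.05 with median-of-ratios factors, where replicate 4 was no longer lowest, and 0.06 with mitochondrial genes left out of the library total. Under the latter alone, of the alternatives run, all 10 members passed the counting-noise test. The mitochondrial coding genes took 7.46%, 12.5%, 9.34% and 7.56% of reads in replicates 1 to 4.

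The PAR bZIP genes are direct E-box outputs of the clock. Dbp (ENSRNOG00000021027) had 179, 137, 147 and 128 CPM, a mean of 148 ± 22.5 (SD, n = 4). Replicate 1 stood highest and replicate 4 lowest, a 1.41-fold span. Tef (ENSRNOG00000019383), with an E-box in the window shown, had 117, 112, 106 and 89.5 CPM, so its highest and lowest animals were those of Dbp. With mitochondrial genes left out of the total, replicate 2 rather than replicate 1 was highest for Tef. The third PAR bZIP gene, Hlf, had 47, 35, 42 and 25 reads, also highest in replicate 1 and lowest in replicate 4. Only 2 of the 6 pairs of animals differed in Hlf beyond the counting interval. Over all genes, 27.7% were highest in replicate 1 and 13.9% lowest in replicate 4. Nfil3, the repressing counterpart of the PAR bZIP genes at the same D-boxes, had 102, 207, 162 and 182 reads and was lowest in replicate 1.

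The Period genes divided. Per1 (ENSRNOG00000007387), a repressor gene that also answers to glucocorticoids and to cAMP signalling, had 114, 88.2, 80.9 and 94.2 CPM. Its order over the animals was that of Nr1d1, with replicate 1 highest and replicate 3 lowest. Per2 (ENSRNOG00000020254), with an E-box variant and a D-box in the window shown, had 37.2, 54.9, 48.5 and 37.0 CPM. Here replicates 2 and 3 were high, and replicates 1 and 4 were low and could not be told apart by their reads. Per3 (ENSRNOG00000018413), the Period gene that mice can lose with little effect on rhythm, had 49.8, 64.7, 73.7 and 47.8 CPM. Replicates 2 and 3 were again high, and the span from replicate 4 to replicate 3 was 1.54-fold. Per2 minus Per1 was -1.61, -0.69, -0.74 and -1.35 in replicates 1 to 4, a range of 0.92 within 1 gene family.

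**Figure D3:**
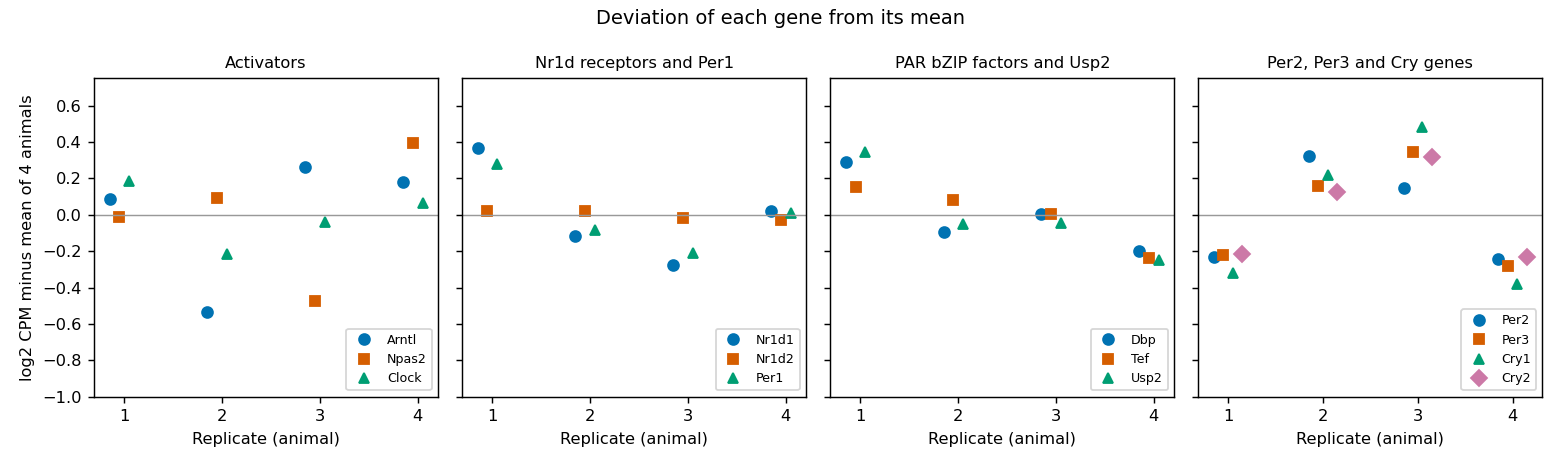
Deviation of log2 CPM from the mean over 4 animals, in panels by role, with 1 symbol per gene. Per2, Per3, Cry1 and Cry2 are above their means in replicates 2 and 3 and below them in replicates 1 and 4, as 15.9% of all genes are, whereas Nr1d1, Per1 and Dbp are highest in replicate 1.

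The Cryptochrome genes, whose products repress together with PER, were placed beside Per2 and Per3 after their values were seen. Cry2 had 695, 1053, 1139 and 772 reads and Cry1 92, 160, 182 and 99 reads in replicates 1 to 4. For both, replicates 2 and 3 were above replicates 1 and 4. That order was common: 23.5% of all genes had it, 2 of the 10 members (Per2 and Per3) and 6 of the 17 other clock genes. The log2 difference of Per3 and Cry2 was -0.04, -0.01, -0.01 and -0.08 in replicates 1 to 4. Its range of 0.08 was of the size of the counting error of 1 such difference, up to 0.08, although each gene spanned more than 0.5 on its own. Among 12758 genes, 5 including Cry2 had a difference from Per3 with a range this small, and 181 lay within a root mean square difference of 0.1 of its profile. Per3 minus Dbp, in contrast, had a range of 0.85, and Per3 minus Nr1d1 one of 1.21, from -1.47 in replicate 1 to -0.27 in replicate 3. These differences within an animal do not depend on the scaling between libraries. Endothelial markers had a list mean of 9.12, 9.42, 9.48 and 9.20 log2 CPM in the same animals, also higher in replicates 2 and 3. Of the 9 measured, 7 had replicates 2 and 3 highest, against 23.5% of all genes. The exceptions were Kdr, lowest in replicate 2, and Emcn, higher in replicate 4 than in replicate 2. The part of endothelial RNA in the Per2, Per3 and Cry pattern was not tested.

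The genes that peak at opposite times were then set against each other within each animal. The mean log2 CPM of Arntl and Npas2 minus that of Nr1d1, Dbp and Per3 was -2.94, -3.03, -2.96 and -2.39 in replicates 1 to 4, with a mean of -2.83 ± 0.30 (SD, n = 4). Replicate 4 stood apart, and the other 3 animals lay within 0.09 of each other. No counting error was computed for this difference, and that of Npas2 alone was up to 0.19. In replicate 4 the activator mean was the highest of the 4, at 4.06 log2 CPM, and the output mean the lowest, at 6.45. Not every gene followed its mean. Arntl was higher in replicate 3 (5.35 log2 CPM) than in replicate 4 (5.27), so the activator peak rested on Npas2, with its 109 reads. Nr1d1 in replicate 4, at 6.77, was second to replicate 1 and close to its mean of 6.75. Per3 had 5.64, 6.02, 6.20 and 5.58 log2 CPM in replicates 1 to 4, low where Nr1d1 was high, at 7.11, 6.63, 6.47 and 6.77. The output mean thus averages genes that partly offset each other. The range over the 4 animals was 0.64, and 0.59 with Clock added to the activators and Nr1d2 and Tef to the outputs. Over replicates 1 to 3 the activator mean spanned 0.26 and the output mean 0.16, both more than their difference. Both means were highest in replicate 1 and lowest in replicate 2 among those 3 animals, the same order and not opposite ones. Single genes within the means differed more. Arntl minus Nr1d1 alone ran from -2.07 in replicate 2 to -1.12 in replicate 3, a range of 0.96, and Npas2 minus Dbp from -5.22 in replicate 3 to -4.15 in replicate 4. Replicate 3 thus lay at the high end of the first difference and the low end of the second. No clock time of harvest is given for these animals, so none of these differences could be set against one.

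**Figure D4:**
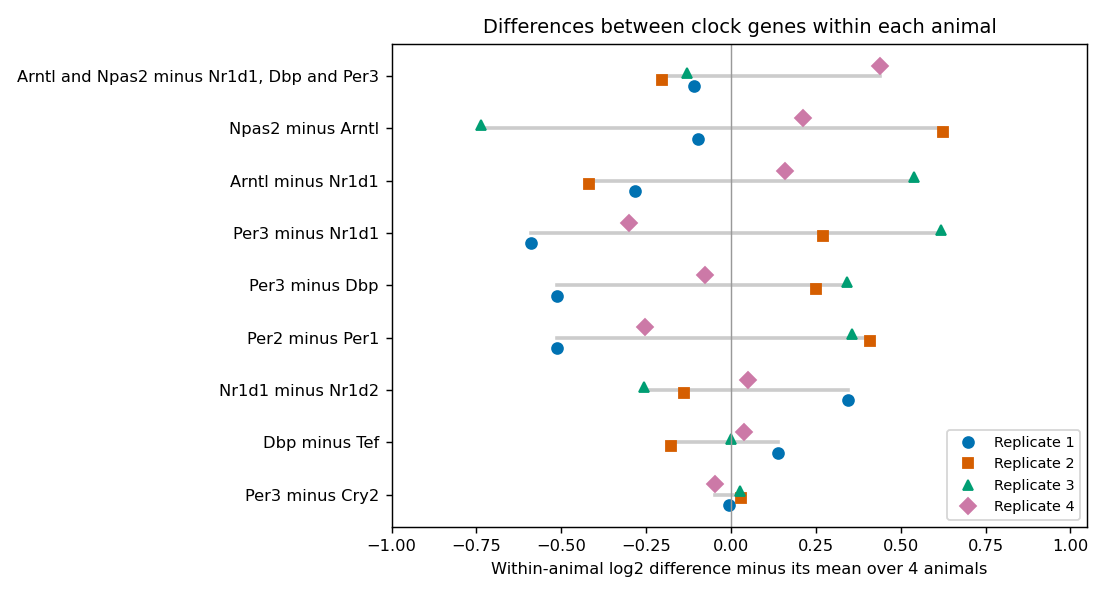
Within-animal differences of log2 CPM between clock genes, each shown minus its mean over 4 animals, with 1 symbol per animal and a bar from lowest to highest. Replicate 4 lies apart in the opposed-arm difference, the widest bar is that of Npas2 minus Arntl, and the narrowest is that of Per3 minus Cry2.

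The remaining clock genes were taken from a list of 20, of which 17 were measured. The median SD of the 17 was 0.24. The chi-square test placed 15 of them beyond counting noise, against 69.5% of all genes. Limma called 0 (1 at an unadjusted p under 0.05, against 5.47% of all genes), and the fixed-trend test called 2, against 7.59%. These 2 were the E-box repressor genes Bhlhe40 and Bhlhe41, which did not vary together. Bhlhe41 had 146, 63, 63 and 59 reads, high in replicate 1 only (fixed-trend adjusted p = 0.000793, limma adjusted p = 0.912). Bhlhe40 had 624, 1119, 573 and 644 reads, high in replicate 2 only (fixed-trend adjusted p = 0.00931, limma adjusted p = 0.913). Rora, whose product activates through ROR elements, had 89, 54, 41 and 53 reads and was highest in replicate 1. The kinase gene Csnk1d, whose product phosphorylates PER, was as even as Nr1d2, with an SD of 0.03, while its relative Csnk1e had 0.19. Ciart, an E-box output that represses CLOCK and BMAL1, had 67, 61, 47 and 38 reads, highest and lowest in the same animals as Dbp. Only 2 of the 6 pairs of animals differed in Ciart beyond the counting interval.

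Of 12 clock output genes, 11 were measured, with a median SD of 0.17. The chi-square test placed 9 beyond counting noise, where the share over all genes was 69.5%. Limma called 0 (1 unadjusted, against 5.47% of all genes), and the fixed-trend test called 2, Slc9a3 and Cys1, against 7.59%. Slc9a3, the sodium-proton exchanger of the proximal tubule, had 664, 573, 308 and 545 reads. It was lowest in replicate 3, as were all 12 proximal tubule markers, and their part in its spread was not tested. The proximal tubule list means were 8.82, 8.47, 7.75 and 8.43 log2 CPM in replicates 1 to 4. Nr1d1 and Per1 were likewise highest in replicate 1 and lowest in replicate 3. Whether tubular RNA had a part in those differences was not tested. Wee1, the cell cycle kinase gene driven by E-boxes, did not pass the counting-noise test (adjusted p = 0.0949). It had 228, 272, 312 and 274 reads, or 16.8, 16.8, 20.3 and 18.0 CPM. Nampt, the NAD salvage enzyme gene, had an SD of 0.09.

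Genes with the profile most like that of a member were ranked by the root mean square difference of centred log2 values over the 4 samples, among 12758 genes. Nearest to Dbp were Mboat7, at 0.01, and Aak1, Fen1, Hnrnpab and AABR07039234.1, each at 0.02. Such closeness was common, with 247 genes within 0.1 of Dbp. Usp2, the deubiquitinase gene known as a clock output, ranked 22 at 0.05. The cytochrome P450 reductase gene Por, a target of PAR bZIP factors, ranked 265 and Tef 420. The other 9 measured output genes ranked from 855, for Nampt, to 11568, for Slc9a3, with Wee1 at 5746, Sgk1 at 8982 and Tsc22d3 at 9906. The other members, Ciart and the Cry genes ranked lower, with Per1 at 1306, Clock at 1484, Nr1d2 at 2153, Nr1d1 at 2745 and Ciart at 4992. Cry2, Per3, Arntl, Per2, Npas2 and Cry1 fell between 9342 and 11567. Usp2 had 388, 352, 335 and 289 reads, and Dbp minus Usp2 had a range of 0.10 over the animals. Nearest to the mirror image of Dbp were Tlr6, Crocc, Mypop, Mif4gd and Tmem260, none of which is in the clock lists. Among the members themselves, Nr1d1 and Per1 were the nearest pair, at 0.06, then Dbp and Tef at 0.11. How many other genes lay as near to Nr1d1 or to Per1 was not counted.

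Nearest to Arntl were Rnf144a, Pdgfrb, Clec11a, Cyfip2 and Zswim6, at 0.04 to 0.05. Pdgfrb, the receptor that marks mesangial cells, had 454, 308, 505 and 512 CPM and was low in replicate 2, as Arntl was; it was reached through its likeness to Arntl. Of the 8 mesangial markers 5 were lowest in replicate 2, and 2, Des and Pdgfra, were highest there. Their list means were 7.23, 7.15, 7.36 and 7.54 log2 CPM, so replicate 2 was only slightly below replicate 1. The 12 podocyte markers were all lowest in replicate 2, and their list mean, 9.14 in replicate 1, spanned 1.14 between those animals. Over the 4 animals the podocyte means had the order of Clock, with replicate 1 highest, then 4, 3 and 2. The share of the Arntl and Clock differences that goes with cell makeup was not tested.

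Glucocorticoid hormone peaks daily and sets peripheral clocks, and Per1 is among its direct targets. Of 7 glucocorticoid-induced genes, 7 were beyond counting noise, against 69.5% of all genes. The fixed-trend test called 2, Zbtb16 and Fkbp5, against 7.59% of all genes. Limma called 0 of the 7 (2 unadjusted, against 5.47% of all genes), with an adjusted p of 0.912 for both Zbtb16 and Fkbp5. Zbtb16 spanned 1.09 to 6.65 log2 CPM, lowest in replicate 4 and highest in replicate 2. Fkbp5, the hormone receptor cochaperone gene, named after its values were seen, had 6.28, 7.68, 6.60 and 5.84 log2 CPM. Tsc22d3, a glucocorticoid target also listed among clock outputs, had 6.59, 7.08, 7.07 and 6.64. Replicates 2 and 3 were the upper animals for 5 of the 7 genes, where 23.5% of all genes had that order. The exceptions were Klf9, at 7.58, 7.78, 7.52 and 7.27 log2 CPM, and Errfi1, at 6.58, 6.62, 6.14 and 6.38, both highest in replicates 2 and 1. Per2 was also higher in replicates 2 and 3, whereas Per1 was lower in those animals than in replicates 1 and 4. The median SD of the list was 0.22, and Ddit4 varied least, with an SD of 0.12. Whether hormone exposure had a part in the Per2 values was not tested.

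**Figure D5:**
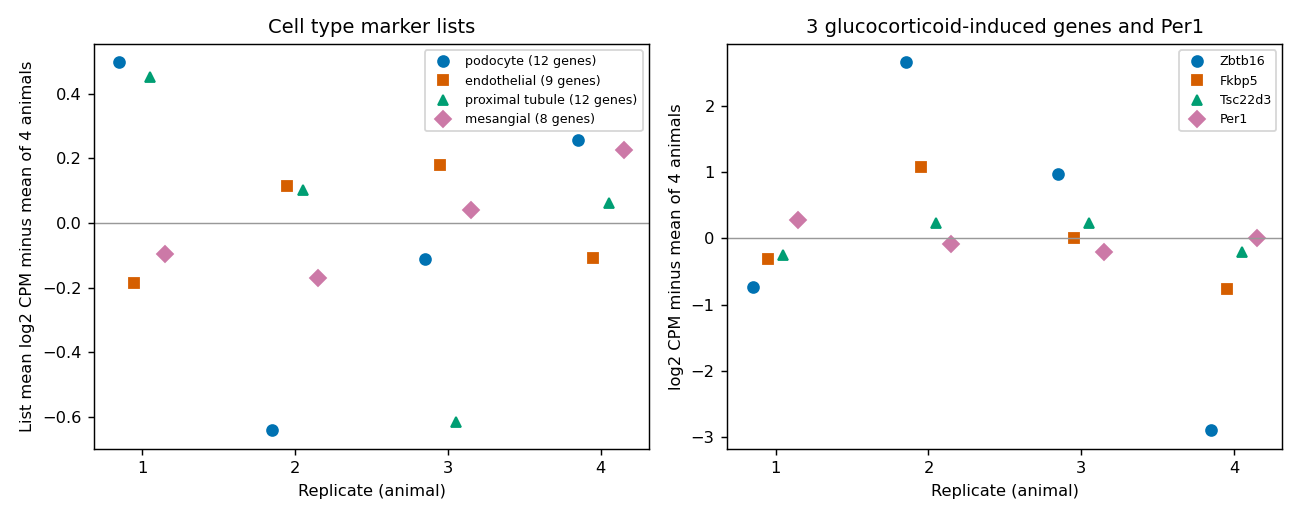
Left, mean log2 CPM of cell type marker lists by animal, minus the mean over 4 animals; right, the same deviation for Zbtb16, Fkbp5, Tsc22d3 and Per1. The podocyte list is lowest in replicate 2 and the proximal tubule list in replicate 3, and Zbtb16 spans 1.09 to 6.65 log2 CPM.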

How the data were processed

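The deposited table holds 1 log2 value per gene and sample. Per the submitters' processing notes, HISAT2, featureCounts (Subread), limma and build Rnor_6.0 were used; versions, annotation release, strand setting and the filter on low genes are not given in the sources used here. Each deposited value equals log2 CPM with 0.5 reads added, and whole reads were recovered for 100% of values within 0.001 reads. Of 13265 rows, 4 with displaced values were left out. Value columns of no sample numbered 0. Replicate numbers follow accession order. The sample title of replicate 1 is not consecutive with those of the other animals, which run on from each other. The labels do not say why, or whether its harvest day was theirs.

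Tests ran over 13261 genes, adjusted by Benjamini-Hochberg at 0.05: a chi-square index of dispersion on recovered reads (3 degrees of freedom); an intercept-only fit of log2(CPM + 1) in limma 3.58.1 (R 4.3.3), each gene's variance set against the abundance trend by an F test; and a Pearson statistic at a fixed negative binomial trend, scaled in 40 bins. On simulated counts for 13261 genes, a 2-fold change in 1 replicate was called by limma in 36% of 50 genes and by the fixed trend in 74%; for 4-fold, both called 100%. Real genes vary more unevenly than the simulated ones, which all had 1 dispersion, so these shares are at most upper guides. They do not give limma's sensitivity here. Its smallest adjusted p over the real genes was 0.912, and Zbtb16, with a 47.0-fold span over the animals, was not called. Counting intervals cover counting error only. Alternatives were other scalings, pseudocount, prior, a low-value filter and leaving out each replicate.

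The members and lists were chosen with earlier results of these data known. Genes named are the members, the clock and output lists, the extremes of SD in other lists, and the 5 nearest profiles to Dbp, to Arntl and to the mirror of Dbp, unless stated. Sequences are from RefSeq (GRCr8).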

Additional observations from a re-analysis of the deposited data

Results flagged for a closer look

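In 39 profiles over the 4 animals (members, other clock genes, clock outputs and the opposed-arm difference), the gap between an extreme animal and its nearest neighbour was divided by the whole range. In 2 of them this ratio passed Dixon's 95% critical value, where chance gives about 1.95. Over all genes 5.08% passed. Bhlhe41 had a ratio of 0.943, set by replicate 1, with 3.43 log2 CPM against 1.96 to 2.05. The difference of Arntl and Npas2 from Nr1d1, Dbp and Per3 had a ratio of 0.856, set by replicate 4.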

How the results depend on the processing

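Of 129 values recomputed under an alternative, 123 stayed within their criterion and 6 moved. The count of members beyond counting noise was 8 to 10 over all alternatives. It was 8 without each of replicates 2, 3 and 4, which removed Arntl in the first case and Npas2 in the others, besides Nr1d2. Limma called 0 members under every alternative, with 0 genes called in all, so that count says nothing about stability. The fixed-trend count of members ran from 0 to 1 when a replicate was left out, the 1 being Arntl without replicate 1. Over all genes that count was 592 to 712 with 3 animals, against 1006 with 4, and 957, 927 and 1085 with mitochondrial genes out of the total, with the low-value filter and with median-of-ratios factors. Fewer samples were tested in the former. The range of the opposed-arm difference was 0.092 to 0.642 when a replicate was left out; 0.0923 was the value without replicate 4, so the range rested on that animal. The SD of Nr1d2 moved from 0.03 to 0.06 when the total left out mitochondrial genes, and to 0.05 with median-of-ratios factors. The other 69 of 70 alternative SDs of single members met the criterion, a move of less than the SD itself, which is hard to leave. Leaving out 1 animal still moved the SD of 7 members by over 1.5 times, most for Arntl, 0.36 to 0.09 without replicate 2. No paired analysis was possible because the samples form a single group.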

Other observations

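Immediate early genes respond to acute stimuli, as Per1 does in some tissues. Of the 9 measured, 9 lay above the all-gene median SD, which 6630 of 13261 genes exceed by definition, and their median SD was 0.34. Of the 9, 7 were lowest in replicate 1, as were 4642 of the 13261 genes. Fos had 184, 367, 611 and 486 reads in replicates 1 to 4 and Ier2, the most even, 1232, 1881, 1940 and 1901. Per1 was highest in replicate 1.

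Body temperature cycles daily and is another signal to peripheral clocks. Cirbp and Rbm3, cold-inducible RNA-binding protein genes named after their values were seen, had 815, 1216, 1552 and 1240 reads and 1560, 2143, 2676 and 2335 reads. Both were lowest in replicate 1 and highest in replicate 3, the opposite ends to those of Nr1d1. The 5 erythroid markers measured were all highest in replicate 3 too, as were 29.6% of all genes, with list means of 5.96, 6.22, 6.84 and 6.36 log2 CPM. The 7 immune markers had 5.23, 5.61, 5.93 and 5.69, with 6 of 7 lowest in replicate 1, against 35.0% of all genes. Their part in the Cirbp and Rbm3 values was not tested. The heat shock gene Hspa1b, the most uneven of the 7 temperature-responsive genes measured, had 546, 1306, 744 and 635 reads and was highest in replicate 2, and Dnajb1, the most even, had 771, 949, 767 and 795.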
